A study of Bos taurus with 8 samples.

Results

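POU5F1 (also called OCT4), SOX2, NANOG, SALL4, LIN28A and LIN28B were followed in bovine embryonic stem cells (bESCs). These 6 genes were taken by name from the 32640 genes of the raw count file, and all 6 had counts in every library. The 4 independent bESC lines of XX genotype, named A, C, D and E, had been derived from blastocysts on mouse embryonic fibroblasts (MEF) and adapted to 5% O2. RNA was sequenced from each line on MEF at passage 15 to 17 and again after transition to feeder-free culture at passage 20 to 22, which gave 4 libraries per condition. Feeder-free cultures were grown on vitronectin, and the MEF were irradiated feeders that share the dish with the bESCs. The titles of all 8 libraries carry the medium code NBFRA, while the methods of the study describe Activin A as an addition for feeder-free culture, so the medium on MEF was not settled. Culture matrix, passage and possibly medium changed together, and their effects cannot be told apart. The methods also refer to sequencing batches, for which the study applied no correction, and the batch of each library was not known here. The question was how the transcripts of the pluripotency core compared between the culture systems in low oxygen.

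POU5F1, SOX2 and NANOG are transcription factors that bind the DNA of pluripotent cells together and keep up their own transcription and that of each other. POU5F1 carries a POU domain, SOX2 an HMG box and NANOG a homeodomain. SALL4 is a zinc finger factor that works with them and recruits the NuRD co-repressor complex. LIN28A and LIN28B are RNA-binding proteins that block maturation of the let-7 microRNAs, which otherwise repress growth and oncofetal transcripts, and the LIN28 transcripts are themselves targets of let-7.

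On ARS-UCD2.0, the build used for counting, the RefSeq annotation places POU5F1 on chromosome 23 from 27982798 to 27987297, SOX2 on chromosome 1 from 85302293 to 85303771 and NANOG on chromosome 5 from 101412795 to 101417948. SALL4 lies on chromosome 13 from 79566132 to 79583655, LIN28A on chromosome 2 from 126708949 to 126720207 and LIN28B on chromosome 9 from 44943951 to 45086236. All are protein-coding, and the values below are counts over the whole gene. SOX2 lies within the span of a long non-coding RNA gene, LOC100849009, which held 58 to 319 counts per library beside 16839 to 34044 for SOX2. No other annotated gene overlaps the remaining 5. Total counts per library were 44268717 to 54296425 on MEF and 49671478 to 102351560 in feeder-free conditions, and the largest total was that of line D. The fewest counts of any of the 6 genes in any library were 10079, for NANOG.

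All 6 genes had a lower mean in feeder-free conditions, and their fitted log2 fold changes ran from -0.15 for POU5F1 to -0.58 for SALL4. None met both criteria used for a call, a 1.5-fold change and an adjusted P-value below 0.05, which 1.73 percent of the 15744 genes tested met with edgeR's quasi-likelihood test. SALL4 had an adjusted P-value under 0.05 as lower, and 1.18 percent of tested genes did so with or without a 1.5-fold change. At an unadjusted P-value under 0.05, 5 of the 6 were lower, beside 11.4 percent of tested genes. When the fit was paired by cell line (replicate block), SOX2, SALL4 and LIN28B had an adjusted P-value under 0.05 as lower, beside 8.12 percent of tested genes in edgeR. All genes but POU5F1 were lower in 4 of 4 lines, as were 20.7 percent of tested genes. In SOX2, SALL4, LIN28A and LIN28B the 4 feeder-free libraries lay below all 4 MEF libraries, as in 8.36 percent of tested genes. The RNA is from whole cultures, so fewer cells with a transcript and less of it per cell cannot be told apart.

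**Figure D1:**
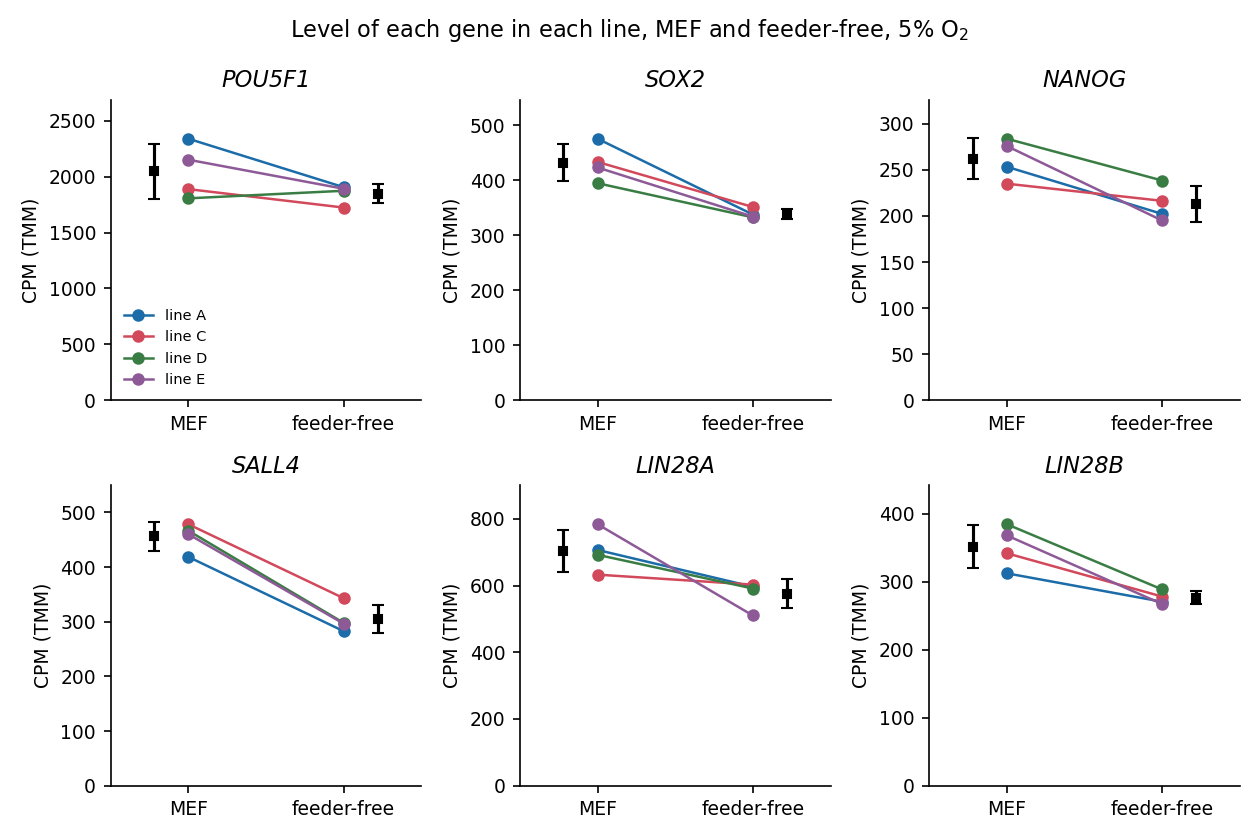
TMM-normalized CPM of each gene in each line, on MEF and in feeder-free conditions. Points joined by a line are the same bESC line, and black squares are means with SD over 4 libraries. Each axis starts at 0, and POU5F1 in line D is the only line that does not go down.

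POU5F1, the POU-domain factor without which pluripotent cells do not form, was among the most abundant transcripts in every library. Levels here are CPM, counts scaled to a common library size after TMM normalization, which adjusts for composition and not for transcript length. On MEF it had 2341 CPM in line A, 1890 in line C, 1807 in line D and 2153 in line E. In feeder-free conditions it had 1907, 1725, 1875 and 1893 CPM in the same order. The conditions overlapped, since only the feeder-free library of line C fell below the lowest MEF library. By CPM it ranked 30 to 36 of 15744 on MEF and 31 to 53 in feeder-free conditions. Its log2 fold change was -0.15, with a 95% interval from -0.44 to 0.15 (adjusted p = 0.577, edgeR's quasi-likelihood test). That interval reaches neither limit of a 1.5-fold change, and the value was -0.08 without the MEF library of line A. The line ratios, log2 of feeder-free over MEF within a line, were -0.30 in A, -0.13 in C, 0.05 in D and -0.19 in E, and line D kept the opposite sign under RLE size factors and under library size alone.

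SOX2, the HMG-box partner of POU5F1 at shared DNA sites, was lower in all lines. It had 476 CPM in A, 434 in C, 395 in D and 423 in E on MEF, and 338, 352, 333 and 334 CPM in feeder-free conditions. The feeder-free libraries lay close together, with a coefficient of variation (SD over mean) of 2.54 percent against 7.77 percent on MEF. The log2 fold change was -0.35, with a 95% interval from -0.59 to -0.10 (adjusted p = 0.109, edgeR). In the paired fit it was also -0.35 (adjusted p = 0.0436, edgeR with the replicate block), but without any single line the paired adjusted p was 0.0781 to 0.159. By CPM it ranked 310 to 399 on MEF and 403 to 508 in feeder-free conditions.

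NANOG, the homeodomain factor that holds pluripotent cells back from differentiation, had 253 CPM in A, 235 in C, 284 in D and 276 in E on MEF. In feeder-free conditions it had 202, 216, 239 and 195 CPM. It was lower within each line, but the feeder-free library of line D lay above the MEF library of line C, so the conditions overlapped. The log2 fold change was -0.30, with a 95% interval from -0.56 to -0.03 (adjusted p = 0.183, edgeR), and the adjusted p was 0.0824 in the paired fit. The line ratios ran from -0.12 in C to -0.50 in E.

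SALL4 had the largest change of the 6 genes and the most even one across lines. It had 419 CPM in A, 478 in C, 467 in D and 460.2 in E on MEF, and 283, 343, 298 and 297 CPM in feeder-free conditions. Lines kept their order, with A lowest, then E and D, and C highest in both, though D and E lay close together. The line ratios were -0.57, -0.48, -0.65 and -0.63, with an SD of 0.0768, beside an SD of 0.233 for LIN28A. The fitted change was -33.1 percent, or -0.58 on the log2 scale, with a 95% interval from -0.84 to -0.32 (adjusted p = 0.0426, edgeR), and 9.88 percent of tested genes had a lower log2 fold change. In the paired fit the adjusted p was 0.00614, and it stayed between 0.0112 and 0.0456 when any 1 line was left out of that fit. In the unpaired fit the adjusted p passed the threshold less steadily. Leaving out the MEF library of line A, C, D or E gave an adjusted p of 0.0851, 0.112, 0.0958 and 0.0958, and leaving out that of line C, D or E in feeder-free culture gave 0.0703, 0.126 and 0.130 (edgeR).

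LIN28A, the mainly cytoplasmic LIN28 protein that recruits the enzymes that mark let-7 precursors for decay, had 707 CPM in A, 633 in C, 692 in D and 784 in E on MEF. In feeder-free conditions it had 596, 603, 591 and 510.3 CPM. The conditions did not overlap, though the gap between the lowest MEF and the highest feeder-free library was narrow, and both were line C. Line E went from the highest value on MEF to the lowest in feeder-free conditions, with a log2 ratio of -0.62 against -0.24, -0.07 and -0.23 in A, C and D. The log2 fold change was -0.29, with a 95% interval from -0.57 to -0.02 (adjusted p = 0.207, edgeR). By CPM it ranked 163 to 186 on MEF and 203 to 263 in feeder-free conditions.

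LIN28B, the paralog that acts on the primary let-7 transcripts in the nucleus, had 313 CPM in A, 342 in C, 385 in D and 368 in E on MEF. In feeder-free conditions it had 271, 278, 289 and 267 CPM. The spread between lines was 8.98 percent of the mean on MEF and 3.45 percent in feeder-free conditions. The log2 fold change was -0.35, with a 95% interval from -0.60 to -0.10 (adjusted p = 0.114, edgeR). In the paired fit the adjusted p was 0.0456. Leaving out line A from the paired fit gave 0.0435, and leaving out C, D or E gave 0.156, 0.224 and 0.102 (edgeR with the replicate block).

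**Figure D2:**
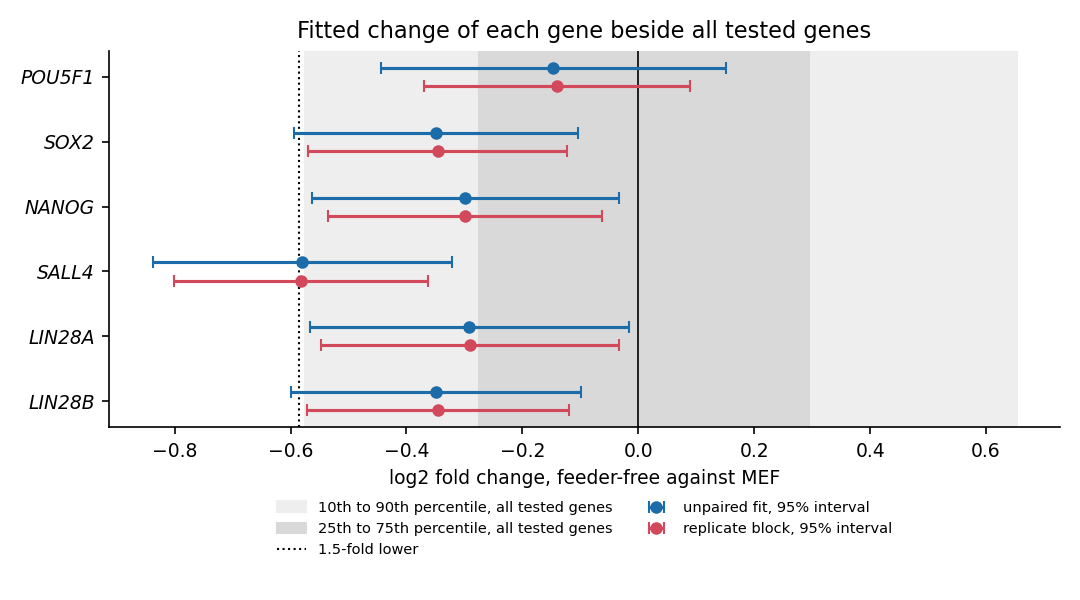
Fitted log2 fold change of each gene, feeder-free against MEF, with its 95% interval in the unpaired fit (blue) and with cell line as a term (red). Grey bands give the 10th to 90th and 25th to 75th percentiles of the 15744 tested genes, and the dotted line marks a 1.5-fold fall. All 6 point estimates lie below 0, the interval of POU5F1 holds 0 in both fits, and the estimate for SALL4 lies at the dotted line.

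The changes were also read against the other genes at like abundance. Of the 704 tested genes with a mean CPM at or above that of NANOG, the least abundant of the 6, 55.3 percent had a log2 fold change below 0, with a median of -0.04. In that group 19.2 percent were lower at an unadjusted P-value under 0.05 in edgeR, and 14 were lower and 4 higher at an adjusted P-value under 0.05. The change also varied with the genomic span of genes. Tested genes spanning up to 5000 bp had a median log2 fold change of 0.11, those over 100000 bp one of -0.13. SOX2 and POU5F1 belong to the shortest group and LIN28B to the longest. NANOG, SALL4 and LIN28A belong to the group over 5000 and up to 20000 bp, which had a median of 0.07. The part of span in the changes of the 6 genes was not tested.

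To see whether the 6 genes changed unequally, ratios of their counts were taken within each library, where normalization cancels. Such a ratio also holds the lengths of both transcripts, so only its shift between conditions was read. For every 100 counts of POU5F1, SALL4 had 17.9 in A, 25.3 in C, 25.8 in D and 21.4 in E on MEF, and 14.8, 19.9, 15.9 and 15.7 in feeder-free conditions. The ratio went down in 4 of 4 lines, while the conditions overlapped. Its mean log2 value shifted by -0.44 (two-sided exact permutation test, p = 0.0571, adjusted over 6 ratios 0.257). SOX2 had 20.3, 22.9, 21.8 and 19.7 counts per 100 of POU5F1 on MEF in lines A, C, D and E, and 17.7, 20.4, 17.7 and 17.6 in feeder-free conditions. This was lower in 4 of 4 lines as well, with a shift of -0.21 (exact permutation test, p = 0.0857, adjusted 0.257). NANOG, LIN28A and LIN28B over POU5F1 shifted by -0.16, -0.15 and -0.21, lower in 3, 2 and 3 of 4 lines (exact permutation p = 0.257, 0.229 and 0.229). NANOG over POU5F1 shifted by -0.24 without the MEF library of line A and -0.06 without that of line D, and LIN28B over POU5F1 by -0.33 and -0.10. Without the feeder-free library of line E the shift of LIN28A over POU5F1 was -0.08, and without the MEF library of line D it was -0.10. No ratio had an exact permutation p under 0.05 before or after adjustment, in a test that leaves the pairing by line aside and can reach 0.0286. Within lines, SALL4 over POU5F1 changed by -0.70 to -0.27 and SOX2 over POU5F1 by -0.30 to -0.16, and the paired exact test, which cannot go below 0.125 with 4 lines, gave 0.125 for both.

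The mean balance of the LIN28 paralogs differed little between conditions, while single lines shifted either way. On MEF there were 44.2, 54.1, 55.6 and 47.0 counts of LIN28B per 100 of LIN28A in lines A, C, D and E, and in feeder-free conditions 45.4, 46.2, 48.9 and 52.4. The ratio rose in A and E and fell in C and D, with log2 shifts within lines from -0.23 to 0.16. The order of lines was not kept. Its mean log2 shift was -0.05 (exact permutation test, p = 0.600), within the SD of 0.159 on MEF, and it ranged from -0.11 without the MEF library of line A to -0.00373 without that of line D.

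**Figure D3:**
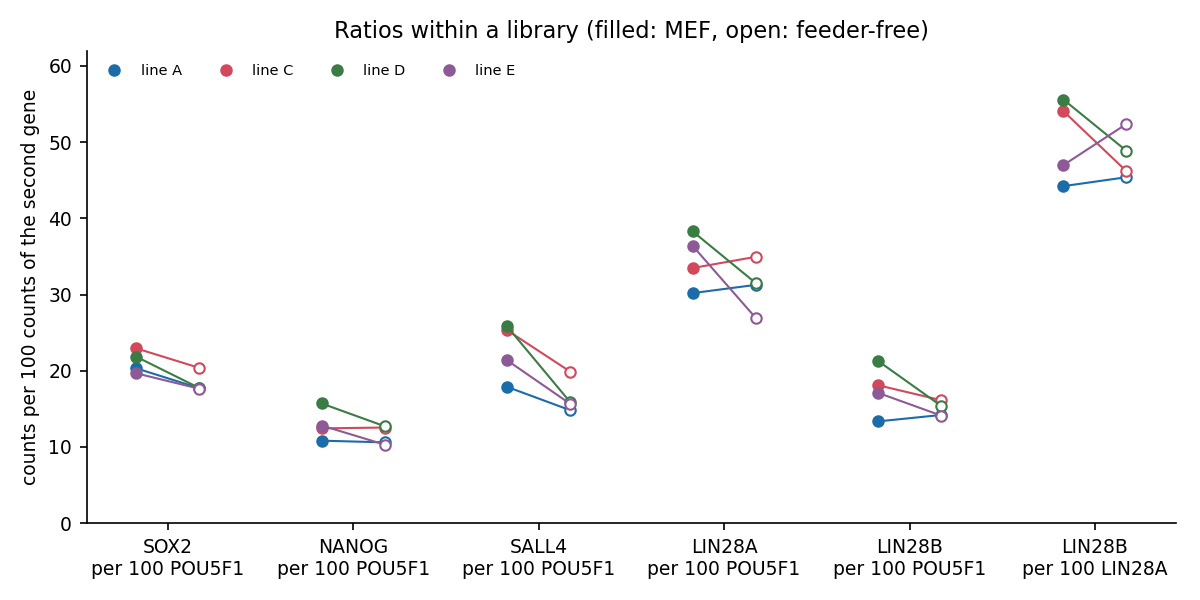
Counts of one gene per 100 counts of another in the same library, for 6 ratios, on MEF (filled) and in feeder-free conditions (open), with the same line joined. SALL4 and SOX2 per 100 counts of POU5F1 go down in all 4 lines, whereas LIN28B per 100 counts of LIN28A goes down in 2 lines and up in the other two.

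Spread between lines was also set beside that of other genes, which were mostly less abundant than these 6. The coefficient of variation over the 4 lines was 5.70 to 11.96 percent on MEF and 2.54 to 8.98 percent in feeder-free conditions, beside medians of 16.04 and 15.8 percent over the 9389 tested genes of at least 10 CPM. POU5F1 had the widest spread on MEF and NANOG in feeder-free conditions. On MEF, the share of these genes with a smaller coefficient ran from 6.73 percent for SALL4 to 32.1 percent for POU5F1. In feeder-free conditions it ran from 0.522 percent for SOX2 to 16.4 percent for NANOG. The summed CPM of the 6 genes, by library size alone, was 4069 to 4361 on MEF and 3558 to 3639 in feeder-free conditions.

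Among the same 9389 genes, those with the most similar pattern over the 8 libraries were found by the root mean square difference of centred log2 CPM. PPP3R1 was nearest to NANOG at 0.0379, followed by CAB39 and RAB21. SAP130, PIAS2 and PPP2R5E were nearest to LIN28B, the first at 0.0428, and VPS41, EPS15 and PLEKHA8 to LIN28A, the first at 0.0431. SALL4 was closest to NCOA3 at 0.0532, then ZNF8 and KDM5B. SOX2 was closest to PRKACA at 0.0565, then TMCC1 and F8A1. VAMP3 and VAMP1 were among the genes nearest to POU5F1, at 0.0626 and 0.0669. Within the 6, the closest pair was NANOG and LIN28B, at a difference of 0.0801, which placed LIN28B 23rd among the genes nearest to NANOG. SALL4 and POU5F1 were farthest apart, at 0.291. With 8 libraries from 4 lines, these likenesses are descriptions.

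Paralogs of the 6 genes were counted from a list of POU, SOX and SALL family members. Of 32 listed, 30 were in the file and 19 were tested. In the unpaired edgeR fit 4 were called lower and 0 higher, beside 1.0 and 0.724 percent of all tested genes, and at an unadjusted P-value under 0.05 there were 9 lower and 0 higher, beside 11.4 and 10.2 percent. With the replicate block 10 were lower and 0 higher at an adjusted P-value under 0.05, beside 8.12 and 7.67 percent of tested genes. The median log2 fold change was -0.47, against 0.01 for all genes tested, and 16 of 19 were below 0.

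SOX11, a neural and progenitor SOX factor and the most abundant paralog of the list, had 666 CPM in A, 662 in C, 601 in D and 642 in E on MEF. In feeder-free conditions it had 428, 397, 389 and 408 CPM, so the conditions lay far apart. Its log2 fold change was -0.66 (SE 0.11, adjusted p = 0.0331, or 0.0517 with no filter, edgeR). SOX4, of the same SOXC subgroup, had the largest fall of the list, from 38.5 to 81.0 CPM on MEF to 15.9 to 22.1 in feeder-free conditions, with a fitted log2 change of -1.73 (SE 0.23, adjusted p = 0.0314, edgeR). POU2F1, the widely expressed octamer-binding factor OCT1, had 198 to 274 CPM on MEF and 103 to 136 in feeder-free conditions, and fell by 0.98 on the log2 scale (adjusted p = 0.0331, edgeR). SALL1, a close relative of SALL4, had 61.6 to 89.8 CPM on MEF and 43.4 to 54.6 in feeder-free conditions, with a log2 fold change of -0.71 (adjusted p = 0.0471, edgeR), and its adjusted p was 0.0550 with library size alone, 0.0569 with no filter and 0.0522 in limma-voom. SALL3 and SALL2, the other members of that family, had -0.72 and -0.23, and did not pass in the unpaired fit (adjusted p = 0.0621 and 0.396, edgeR), while SALL3 passed in the paired one (adjusted p = 0.00649). POU2F2 and SOX9 also had large values, -1.52 and -1.43 (adjusted p = 0.0509 and 0.164 unpaired, 0.0240 and 0.0213 paired, edgeR). SOX9 ranged from 8.41 to 60.9 CPM between lines on MEF, and its log2 fold change was -0.82 without the MEF library of line E. Over all the lists described here 7 genes were called, and 0 or 1 remained called when any library other than the feeder-free one of line A was left out, the 1 being SOX4 without the MEF library of line C.

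NuRD, the chromatin complex that SALL4 recruits, had all 14 listed genes tested. Of these, 1 was called lower and 0 higher, beside 1.0 and 0.724 percent of all tested genes. There were 3 lower and 2 higher at an unadjusted P-value under 0.05 in edgeR, beside 11.4 and 10.2 percent of tested genes. GATAD2B, a subunit that links the deacetylase and remodelling parts, was the gene called lower. It had 58.6, 65.4, 74.8 and 79.5 CPM on MEF in lines A, C, D and E and 38.9, 41.8, 43.9 and 43.2 in feeder-free conditions. Its log2 fold change was -0.73 (adjusted p = 0.0331, edgeR). HDAC1 was higher in 4 of 4 lines, at a log2 fold change of 0.44, and MTA3 lower in 4 of 4, at -0.55. Neither passed unpaired (adjusted p = 0.121 and 0.120), while both passed in the paired edgeR fit (adjusted p = 0.0175 and 0.0189). HDAC2, the most abundant subunit gene, had -0.25 (adjusted p = 0.477), or -0.11 without the MEF library of line E. The median of the list was -0.19.

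Of 30 partners and targets of the core factors, 28 were in the file, 25 were tested and 0 were called in the unpaired fit. At an unadjusted P-value under 0.05, 3 were higher and 2 lower in edgeR, where the shares over all tested genes were 10.2 and 11.4 percent. With the replicate block 3 and 3 passed the adjusted threshold, near the 7.67 and 8.12 percent of tested genes. The median log2 fold change was 0.08, of opposite sign to that of the 6 genes. LEFTY2, a Nodal antagonist and the most abundant gene of the list, had 4049, 3109, 2630 and 1906 CPM on MEF in lines A, C, D and E and 2463, 1982, 1610 and 1090 in feeder-free conditions. The order of lines was the same in both, and the line ratios ran from -0.81 to -0.65. Its log2 fold change of -0.71 did not pass unpaired (adjusted p = 0.193, edgeR) but did with the replicate block (adjusted p = 0.00227). UTF1, a chromatin factor driven by POU5F1 and SOX2 in mouse cells, had a log2 fold change of 0.67, higher in 4 of 4 lines (adjusted p = 0.110 unpaired and 0.0519 paired, edgeR). ZFP42 (REX1), a marker of the naive state, had 1.45 to 5.14 CPM on MEF and 4.94 to 14.7 in feeder-free conditions, with a log2 fold change of 1.36 (adjusted p = 0.126 unpaired and 0.0412 paired, edgeR). It was higher in 3 of 4 lines, and line D had 5.14 CPM on MEF and 4.94 in feeder-free conditions. Its fold change was 0.89 on the log2 scale when the feeder-free culture of line A was left out.

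On the side of let-7, 18 of 18 genes of its processing and decay were tested. In the unpaired fit 1 was called lower, beside 1.0 percent of all tested genes. In edgeR 4 were lower and 2 higher at an unadjusted P-value under 0.05, beside 11.4 and 10.2 percent of tested genes. AGO1, an Argonaute protein that carries mature microRNAs, had 552, 567, 601 and 508 CPM on MEF in lines A, C, D and E and 368, 361, 310.1 and 278 in feeder-free conditions. Its log2 fold change was -0.76 (adjusted p = 0.0348, edgeR). DIS3L2, the exonuclease that degrades let-7 precursors tailed under LIN28A, had a log2 fold change of -0.45, lower in 4 of 4 lines. DGCR8, the partner of DROSHA in cropping primary microRNAs, had 0.63, higher in 4 of 4. Both missed the unpaired threshold (adjusted p = 0.152 and 0.0812) and passed the paired one (adjusted p = 0.0265 and 0.0131, edgeR). TUT4 and TUT7, the uridylyl transferases that add the tail, had -0.09 and -0.19, with adjusted p of 0.704 and 0.579. HNRNPA1, the most abundant gene of the list, had -0.39 (adjusted p = 0.132 unpaired and 0.0313 paired, edgeR).

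Of 22 transcripts known as let-7 targets, all were tested and 1 was called lower, beside 1.0 percent of all tested genes, with a median log2 fold change of -0.28. At an unadjusted P-value under 0.05, 8 were lower and 2 higher in edgeR, beside 11.4 and 10.2 percent of tested genes. TRIM71, the stem cell RNA-binding protein and classical let-7 target, had 56.6, 51.4, 52.6 and 76.5 CPM on MEF in lines A, C, D and E and 40.5, 35.7, 29.8 and 27.9 in feeder-free conditions. Its log2 fold change was -0.82 (adjusted p = 0.0486, edgeR), and the adjusted p was 0.0522 with RLE size factors, 0.0566 with library size alone, 0.0536 with no filter and 0.0508 in limma-voom. Other targets went both ways. IGF1R and MYC had log2 fold changes of 0.99 and 0.91 (adjusted p = 0.0671 and 0.162 unpaired, 0.0195 and 0.0455 paired, edgeR), the former higher in 4 of 4 lines and the latter in 3. HMGA1, the most abundant target, had -0.31, lower in 3 of 4 lines (adjusted p = 0.294). HMGA2, a target bound by let-7 at several sites, had 0.22 (adjusted p = 0.391). With the replicate block 6 targets were lower and 2 higher in edgeR, beside 8.12 and 7.67 percent of all tested genes. Mature let-7 was not measured in these libraries.

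**Figure D4:**
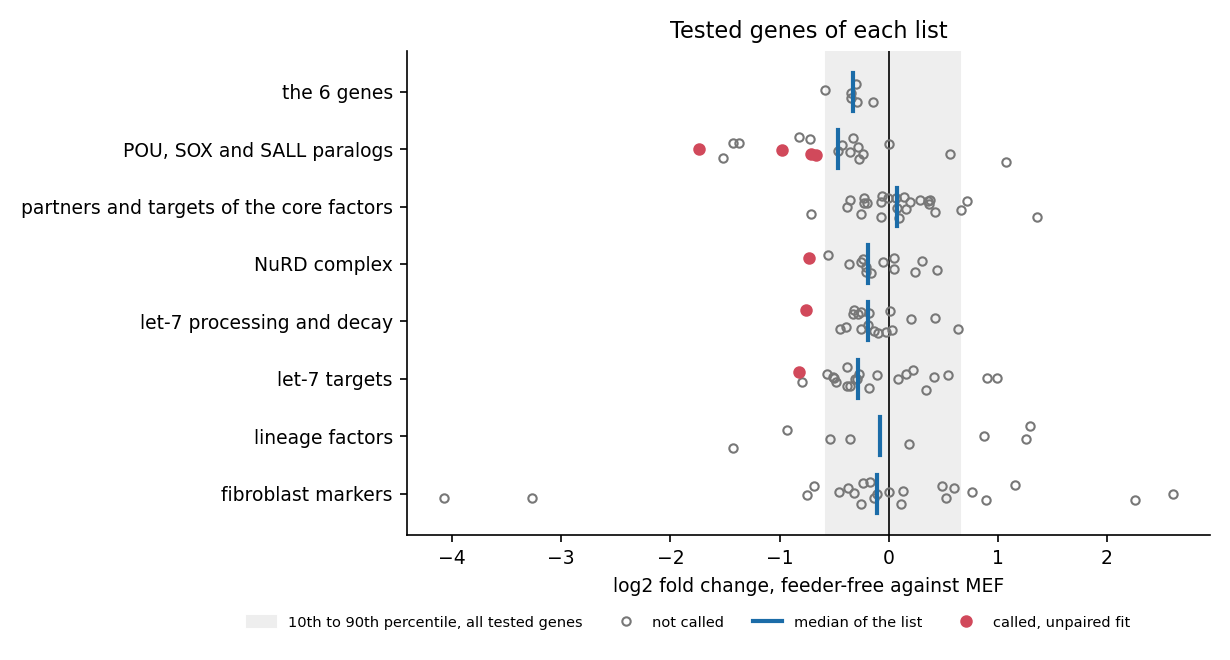
Log2 fold change, feeder-free against MEF, of every tested gene of each list, with the list median as a blue bar. Red points passed both thresholds in the unpaired fit, and the grey band holds the 10th to 90th percentile of all tested genes. The 7 red points all lie below 0, and 4 of them are POU, SOX and SALL paralogs.

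Markers of other cell types were read beside these values. Of 17 factors of the trophoblast, hypoblast, mesoderm and neural lineages, 8 had enough counts to be tested, and 0 were called in the unpaired edgeR fit, with 1 higher and 1 lower at an unadjusted P-value under 0.05. The shares over all tested genes were 1.73 percent called, and 10.2 percent higher and 11.4 percent lower at that unadjusted level. CDX2, which defines trophoblast, had 0 counts in all 8 libraries, and GATA4 had at most 2. For 0 counts, a limit of 3 counts allows 0.0293 to 0.0678 CPM. That limit takes counts as independent, and most low counts were even, so it may be too low. The 17 genes summed to 10.1 to 19.0 CPM on MEF and 11.1 to 19.5 CPM in feeder-free conditions, by library size alone. EOMES or FOXA2 was the most abundant in each library. EOMES had 0.770 to 6.69 CPM on MEF and 6.26 to 9.53 in feeder-free conditions, higher in 4 of 4 lines (adjusted p = 0.211 unpaired and 0.0307 paired, edgeR). The fitted value was 1.30 on the log2 scale, or 1.97 without the MEF library of line D. GATA2 was lower in 4 of 4 lines at low counts, with -1.43 (adjusted p = 0.111 unpaired and 0.0447 paired). GATA3 and FOXA2 had log2 fold changes of 0.88 and -0.93, and neither passed in either fit. GATA3 had 0.47 without the MEF library of line A, 1.54 without that of line C and 0.15 without the feeder-free one of line C, and FOXA2 had -0.42 without the MEF library of line E.

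Feeder cells were present only on MEF. The 26 fibroblast markers summed to 1812 to 2224 CPM on MEF and 1410 to 3262 CPM in feeder-free conditions, so the conditions overlapped. Of the 23 tested, 0 were called in the unpaired edgeR fit, beside 1.73 percent of all tested genes. In that fit 2 were higher and 2 lower at an unadjusted P-value under 0.05, beside 10.2 and 11.4 percent of tested genes. VIM, which stem cells in culture also express, was the most abundant marker in every library, at 571 to 1044 CPM on MEF and 528 to 1157 in feeder-free conditions. COL1A1 and MMP2 were abundant in both conditions too, with means of 353 and 481 CPM on MEF and 507 and 405 in feeder-free conditions. The summed level therefore does not measure feeder RNA. COL1A2 had 0.680 to 4.65 CPM on MEF and 0 to 0.414 in feeder-free conditions, and PRRX1 1.02 to 2.62 and 0 to 0.606. Both were lower in 4 of 4 lines and passed in the paired fit (adjusted p = 0.00166 and 0.00759, edgeR). The log2 fold change of PRRX1 was -3.27, or -5.74 without the feeder-free library of line D. COL3A1 was higher, from 0.181 to 1.57 CPM on MEF to 1.44 to 10.5 in feeder-free conditions, and passed in the paired fit as well (adjusted p = 0.00654, edgeR). POSTN also passed there as higher (adjusted p = 0.0317), with 0 to 32 counts on MEF and 0 to 268 in feeder-free conditions. FAP and TWIST2 had 0 counts in all feeder-free libraries, with at most 6 and 32 on MEF, and DPT had 0 on MEF. Per the methods, bovine-aligned reads found in MEF alone were subtracted for cultures on MEF. Whether the deposited counts carry that step, and its part in these marker levels, was not tested. The part of feeder RNA in the levels of the 6 genes on MEF was not tested.

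**Figure D5:**
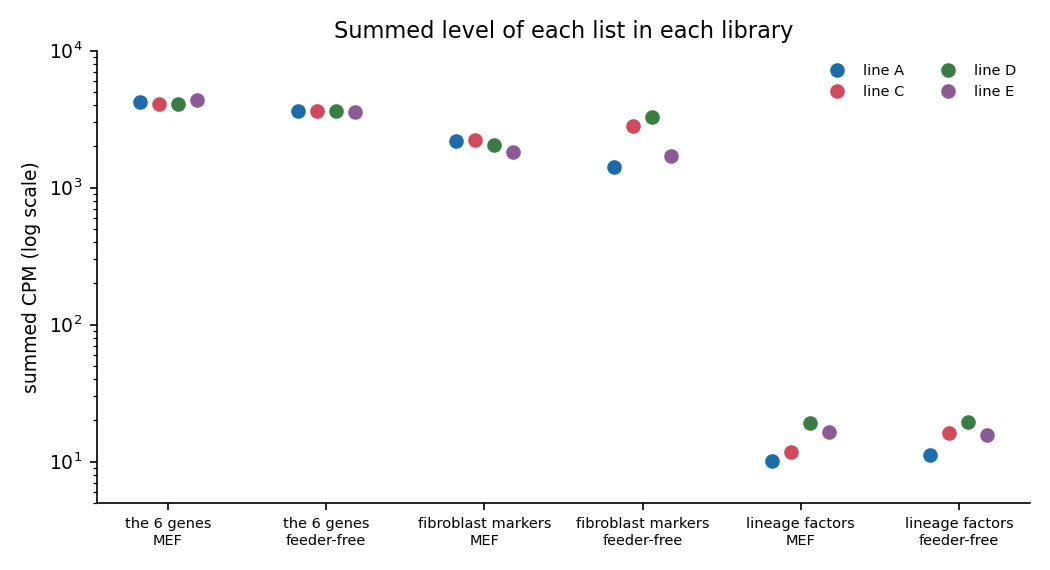
Summed CPM by library size (log axis) of the 6 genes, the fibroblast markers and the lineage factors in each library, coloured by line. The 6 genes lie at 4069 to 4361 on MEF and 3558 to 3639 in feeder-free conditions, while the lineage factors stay between 10.1 and 19.5 throughout.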

How the data were processed

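The authors trimmed 150 bp paired reads with Trimmomatic, aligned them to ARS-UCD2.0 with STAR, removed optical duplicates with Picard and alignments of MAPQ under 30 with samtools, and counted with featureCounts (Subread 1.6.2 in the submitters' processing notes). Bovine-aligned reads found in MEF alone were, per the methods, subtracted. The values are raw counts per gene as deposited. Strand was not given in the sources used here. Of counts from 1 to 20, 69.8 to 75.3 percent per library were even. Of 32640 genes, 3 without values (NEB, SYNE1, DST) were left out, and 0 columns stayed unused. No exon lengths were used here, so the planned ranks per kb of exon became ranks by CPM.

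Counts were tested with edgeR 4.0.16 in R 4.3.3 (filterByExpr, TMM, glmQLFit and glmQLFTest on condition, Benjamini-Hochberg over 15744 genes). Intervals came from the fitted log2 fold change, its F statistic and the fitted degrees of freedom. Line ratios used log2 CPM with a prior count of 2, as did ratios of counts. Alternatives were RLE factors, library size alone, other filters, the likelihood ratio test, DESeq2 1.42.0, limma-voom (limma 3.58.1), adjusted p alone, the replicate block and each library left out. Fits were tested on simulated counts. Libraries were paired by line letter, since each line was grown both ways. Deviations from the condition mean correlated at 0.421 to 0.664 within lines and -0.523 to 0.249 between lines. No 2 libraries of a condition were alike (smallest chi-square per degree of freedom 40.8).

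The members and lists were chosen with earlier results of these data known. Named genes were the 6 genes, every list gene called, the most abundant gene and the 3 largest changes of each list among genes of at least 1 CPM, and the 3 genes nearest in pattern to each of the 6, of which a single gene is not reported here. SALL2, SALL3, TUT4, TUT7, HMGA2, CDX2, GATA4, GATA2, COL1A1, MMP2, POSTN, FAP, TWIST2 and DPT were added after their values were seen. ARID3B, SOX1 and SOX17 stand in 2 lists each.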

Additional observations from a re-analysis of the deposited data

Results flagged for a closer look

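A single library stood apart in 5 of the 88 sets of 4 values that were looked at, and chance gives about 4.4. The feeder-free library of line E was low for LIN28A, at 510.3 CPM against 591 to 603. The feeder-free library of line C was high for the log2 ratio of SOX2 to POU5F1, at -2.29 against -2.50 to -2.49. SOX4 was highest in line A in feeder-free culture, with 22.1 CPM against 15.9 to 16.7. PRRX1 was highest in the feeder-free library of line D, at 0.606 CPM against 0 to 0.0565, and the same library had the largest total, 102351560 counts against 49671478 to 51320214.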

How the results depend on the processing

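The log2 fold changes of all 6 genes were below 0 under each of 16 alternatives, between -0.20 and -0.08 for POU5F1, -0.39 and -0.30 for SOX2, -0.36 and -0.25 for NANOG, -0.64 and -0.54 for SALL4, -0.34 and -0.23 for LIN28A and -0.40 and -0.30 for LIN28B. None of the 6 passed both thresholds in any of them. With no fold change threshold 1 passed, and 3 did with the replicate block as well, a setting added after the data were seen, as was leaving a line out of the paired fit. At an adjusted P-value under 0.05, 1 of the 6 passed. DESeq2 and the replicate block gave 3, and library size alone and no filter 0, where the adjusted p of SALL4 was 0.0660 and 0.0707 in edgeR. Leaving out single libraries gave 0 to 1. Over all genes, 114 were called higher and 158 lower. No filter gave 73 and 97, the likelihood ratio test 448 and 389, DESeq2 695 and 517, the replicate block 869 and 713, or 1207 and 1279 with no fold change threshold. Library size alone gave 91 lower, and at least 10 counts in every library 199 higher. Single libraries left out gave 0 to 259 higher and 0 to 231 lower, and at most 1 and 5 unless that of line A in feeder-free culture was the one left out. Of the lists 7 genes were called, 4 with no filter, 15 with the likelihood ratio test, 20 with DESeq2, 24 with the replicate block, 39 with that block and no fold change threshold, and 0 to 9 without single libraries. The cause of these differences was not tested. The shifts of the 6 ratios kept their sign without any single library, though not their size. Paired by line, the smallest exact p that 4 lines allow is 0.125, so that test could not pass. Ranks among genes of at least 1 CPM were the same as among all tested genes, and ranks per kb of exon were not run.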
